A study of Homo sapiens with 16 samples.

Results

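The cohesin subunit SMC1 was mapped by chromatin immunoprecipitation followed by sequencing in DKO and HCT116 cells, and all 159358 regions of the deposited SMC1 table were used, of 1255311 regions in the 7 tables of the series. The question of the series was whether methylation of DNA bears on alternative polyadenylation by way of CTCF and cohesin; polyadenylation itself was not analysed here. DKO derives from HCT116 by disruption of DNMT1 and DNMT3B, which encode DNA methyltransferases, and HCT116 is a human colorectal carcinoma line. Both lines were grown in McCoy's 5A medium with serum, and the labels name no added agent. Each line had 1 SMC1 library, made with the Bethyl antibody A300-005A after formaldehyde fixation and sonication, so replicates give no spread to read a difference against. DKO is 1 derived line, and what the disruptions did cannot be told apart from other differences between it and HCT116. The other 6 targets, each again with 1 library per line, were the cohesin subunit RAD21, CTCF, histone H3 acetylated at lysine 27 (H3K27Ac), polymerase II with its C-terminal repeat phosphorylated on serine 5 (Pol2Ser5) or on serine 2 (Pol2Ser2), and total polymerase II (TotalRNAPol2, whose antibody label names Pol2Ser5).

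Cohesin is a ring of SMC1, SMC3 and RAD21 with a STAG subunit, which holds sister chromatids together and extrudes loops of chromatin. SMC1 and SMC3 are long coiled-coil ATPases, and RAD21 is the kleisin that closes the ring between them. Moving cohesin is halted by CTCF, a zinc finger protein bound at insulators and domain boundaries, whose binding to some sites is blocked when the site is methylated. Cohesin is also found at active enhancers and promoters without CTCF, where it is loaded onto chromatin.

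The signal of each line is the normalised read density that the authors deposited for a region, and M is the log2 ratio of the densities, DKO over HCT116. Regions with M of at least 1 were called higher in DKO, those with M of -1 or below lower in DKO, and those with M within 0.5 of 0 similar. The reads behind each density were recovered and came to a median of 53 per region in DKO and 35 in HCT116, counted in a 1 kb window. The authors' scaling placed M near 0 at regions called in both lines (median -0.00), and a shift common to all of them could not be detected. Intervals of M are exact 95% intervals from the reads of both libraries. They cover counting error only, since reads made by PCR without molecular identifiers are not independent molecules, and intervals of medians cover the spread of regions only. For 43.6% of SMC1 regions the summit of another region lay within 1 kb of their own, so neighbouring regions can hold the same reads.

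SMC1 density was higher in DKO at more regions than it was lower, while most regions were similar. Of 159358 regions, 14923 (9.36%) were higher in DKO by 2-fold or more and 7439 (4.67%) were lower by 2-fold or more, and 87732 (55.1%) were similar. At the 4-fold level the counts were 936 (0.587%) higher and 439 (0.275%) lower. The median of M was 0.16 (95% interval 0.15 to 0.16), its interquartile range was -0.27 to 0.58 and its full range was -7.53 to 4.97. With the median of all regions set to 0, which lowers every M by that 0.16, 9722 regions were higher and 10944 lower, and the share of higher regions among those past 2-fold was 47.0% in place of 66.7%. The same share was 47.9% with chromosome medians set to 0 and 64.1% under constant scaling. The interval of M excluded 0 at 14862 of the higher and 7229 of the lower regions, and the whole interval lay past 2-fold at 2106 higher and 496 lower regions.

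**Figure D1:**
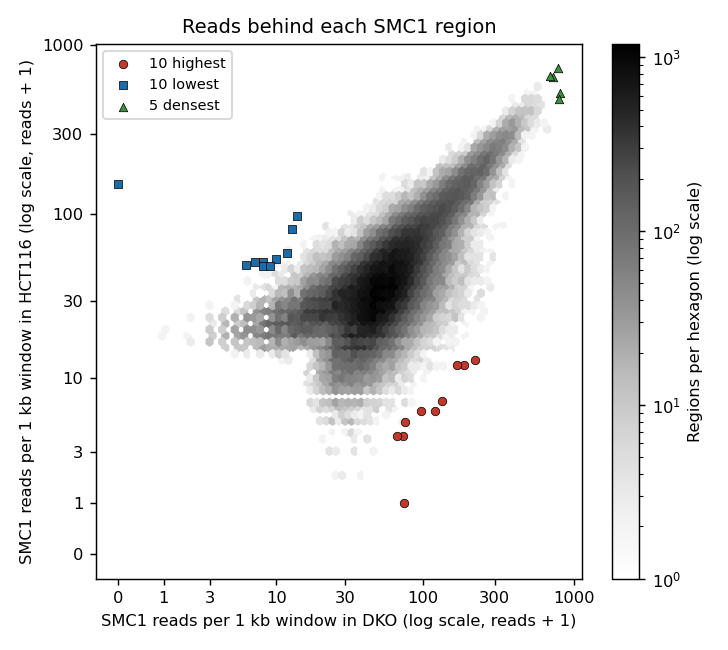
Reads of each SMC1 region in its 1 kb window in DKO (x axis) and HCT116 (y axis), on log scales of reads + 1, with darker hexagons holding more regions. The 10 highest regions (circles) hold 67 to 223 reads in DKO and 1 to 13 in HCT116, the 10 lowest (squares) 0 to 14 in DKO and 49 to 151 in HCT116, and the 5 densest (triangles) 694 to 804 in DKO and 479 to 731 in HCT116.

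Regions that were higher and regions that were lower in DKO differed in depth and length. Median reads of higher regions were 63 in DKO against 20 in HCT116, and their median length was 342 bp. Median reads of lower regions were 14 in DKO against 30 in HCT116, and their median length was 221 bp. Similar regions had 55 reads in DKO against 42 in HCT116 and a median length of 321 bp. The regions lower in DKO were thus the shortest of these classes. They had the fewest reads in DKO, and the higher regions the fewest in HCT116, as M itself selects.

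Peak_Group, the authors' label for the line or lines in which a region was called, followed M, as the same signal sets both. Regions called in DKO only numbered 68812 (43.2%), with a median M of 0.58, and 13687 of them (19.9%) were higher in DKO. Regions called in HCT116 only numbered 36128 (22.7%), with a median M of -0.51, and 6835 (18.9%) were lower. Of the 54418 regions called in both lines (34.1%), 1224 (2.25%) were higher in DKO and 600 (1.10%) lower. Of the higher regions 91.7% were called in DKO only, and of the lower regions 91.9% were called in HCT116 only. The DKO library also held more reads per region than the HCT116 library, and the part of that depth in the number of regions called in DKO only was not tested.

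By length, the longest regions had the fewest calls in both directions, and 98.5% of them were called in both lines, against 16.4% of the shortest. Regions under 500 bp (115512) were higher in DKO in 8.95% and lower in 5.73%. For 29023 regions from 500 bp to under 1 kb the shares were 11.8% and 2.32%, and for 12124 regions from 1 kb to under 2 kb they were 8.43% and 1.10%. Regions of 2 kb or more (2699) were higher in 4.82% and lower in 0.445%. The share of lower regions thus shrank at each step of length, while that of higher regions was largest from 500 bp to under 1 kb. Among regions called in both lines the share of higher regions went the other way, with 0.911% under 500 bp, 2.57% and 3.58% in the middle classes and 3.61% at 2 kb or more. Median M over all regions ran from 0.19 in the shortest class over 0.12 and 0.06 to 0.05 in the longest.

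By density, the weakest regions held most of the lower calls. In the lowest quartile of mean log2 density, 13.9% of regions were higher and 14.3% lower in DKO, with medians of 28 reads in DKO against 22 in HCT116. The next quartiles were higher in 10.6%, 8.26% and 4.68% and lower in 2.16%, 1.21% and 0.982%. In the highest quartile, with medians of 99 reads in DKO against 74 in HCT116, 81.5% of regions were called in both lines. Density enters both M and the quartiles, so these shares are a description.

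SMC1 lay largely where RAD21 and CTCF lay. RAD21 overlapped 115766 SMC1 regions (72.6%) and CTCF 105378 (66.1%), where 1 shared bp counts as an overlap. H3K27Ac overlapped 51.5%, TotalRNAPol2 41.8%, Pol2Ser5 35.6% and Pol2Ser2 32.6%. The SMC1 summit was a median of 66 bp from the RAD21 summit and 65 bp from the CTCF summit, and 60.0% of the RAD21 pairs and 58.0% of the CTCF pairs were within 100 bp. Summits of H3K27Ac were a median of 264 bp away, of Pol2Ser5 223 bp and of Pol2Ser2 214 bp. The SMC1 label thus went with its ring partner in position.

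Sites shared with CTCF and RAD21 were rarely lower in DKO, and sites with neither were lower more often than higher. The 94488 regions with both CTCF and RAD21 (59.3% of all) were higher in 10.2% and lower in 1.96%, with a median M of 0.17. The 10890 regions with CTCF without RAD21 were higher in 10.2% and lower in 2.52% (median 0.37). The 21278 regions with RAD21 without CTCF were higher in 9.13% and lower in 4.45% (median 0.13). The 32702 regions with neither were higher in 6.78% and lower in 13.3% (median -0.00). Read against the shares over all SMC1 regions, 9.36% and 4.67%, the classes differed more in their lower share than in their higher one.

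Depth moved with these classes. Regions with CTCF and RAD21 had medians of 64 reads in DKO against 43 in HCT116, and 52.0% were called in both lines, while regions with neither had 33 reads in DKO against 26 in HCT116, and 1.90% were called in both. Among regions called in both lines, CTCF and RAD21 sites had 1177 higher and 527 lower, RAD21 sites without CTCF had 44 higher and 71 lower of 4234, and sites with neither had 2 higher and 2 lower of 622. The lower calls at sites with neither therefore rest almost wholly on regions called in HCT116 only. With the median of all regions set to 0, CTCF and RAD21 sites kept more higher (6688) than lower regions (3164), but RAD21 sites without CTCF turned, with 1176 higher and 1470 lower.

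**Figure D2:**
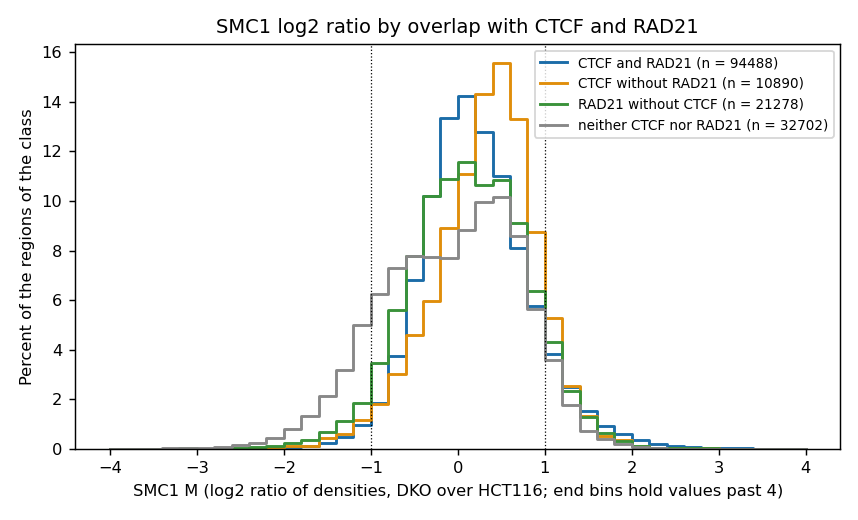
Distribution of SMC1 M (x axis, log2 ratio of densities, DKO over HCT116) in bins of 0.2, as percent of the regions of each overlap class (y axis), with dotted lines at 2-fold. The line for regions with neither CTCF nor RAD21 (median -0.00, 13.3% lower) reaches farther below 0 than the line for regions with both (median 0.17, 1.96% lower).

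Acetylation divided some of these classes further. At CTCF and RAD21 sites the median M was 0.09 with an H3K27Ac region and 0.24 with neither H3K27Ac nor polymerase. At RAD21 sites without CTCF the medians were 0.06 with H3K27Ac (16670 regions) and 0.38 with neither H3K27Ac nor polymerase (2846 regions). Where neither CTCF nor RAD21 was present the order was the opposite, with 0.19 with H3K27Ac and -0.30 for the 15701 regions that overlapped no other table. Among regions called in both lines the medians there were 0.01 with H3K27Ac and 0.04 without any other table. At CTCF sites without RAD21 the medians were 0.37 with H3K27Ac and 0.36 with neither H3K27Ac nor polymerase. Those 15701 regions were lower in DKO in 20.5% and higher in 5.84%, and they held 43.3% of all lower SMC1 regions but 6.14% of the higher ones. They were the thinnest class, with medians of 26 reads in DKO against 24 in HCT116 and a length of 190 bp, and 109 of them were called in both lines.

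RAD21, measured in libraries of its own, followed SMC1 most closely of the 6 targets. Where the overlapping RAD21 region was at least 4-fold higher in DKO (2633 regions), SMC1 had a median M of 1.49 and was higher in 78.6%. At RAD21 regions 2- to 4-fold higher (11676) the median was 0.90 and 41.4% were higher, and at similar RAD21 regions (59035) the median was 0.13 and 3.30% were higher. At RAD21 regions 2- to 4-fold lower in DKO (8606) the median was -0.54 and 16.8% were lower. At RAD21 regions at least 4-fold lower (419) it was -1.34 and 69.7% were lower. The order was the same among SMC1 regions called in both lines, whose medians were 1.41 and -0.99 in the outermost RAD21 classes.

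CTCF gave the same order over a narrower range. SMC1 had a median M of 1.14 where CTCF was at least 4-fold higher in DKO (6508 regions, 59.6% higher) and 0.69 where CTCF was 2- to 4-fold higher (11979 regions, 26.9% higher). At similar CTCF regions (57378) the median was 0.10, and 3.28% were higher and 0.847% lower. SMC1 had a median of -0.59 at CTCF regions 2- to 4-fold lower (3832) and of -1.15 at those at least 4-fold lower (426, 61.0% lower). None of the 426 was higher, and 1 of the 6508 was lower. Over SMC1 regions called in both lines the outermost medians were 0.96 and -0.75.

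Across all overlapping pairs, the Spearman correlation of M with SMC1 was 0.70 for RAD21 (n = 115766), 0.56 for CTCF (n = 105378), 0.50 for TotalRNAPol2 (n = 66572), 0.49 for Pol2Ser5 (n = 56656), 0.40 for H3K27Ac (n = 82127) and 0.18 for Pol2Ser2 (n = 51961). Where both tables called the region in both lines it was 0.62 for RAD21, 0.33 for CTCF, 0.28 for H3K27Ac, 0.24 for Pol2Ser5, 0.19 for TotalRNAPol2 and -0.01 for Pol2Ser2. These values describe regions of the same 2 cell lines, which can share reads and stretches of chromosome, and no p-value was attached. For H3K27Ac the correlation was 0.54 at RAD21 sites without CTCF and 0.35 at CTCF and RAD21 sites. For RAD21 it was 0.70 at both kinds of site.

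**Figure D3:**
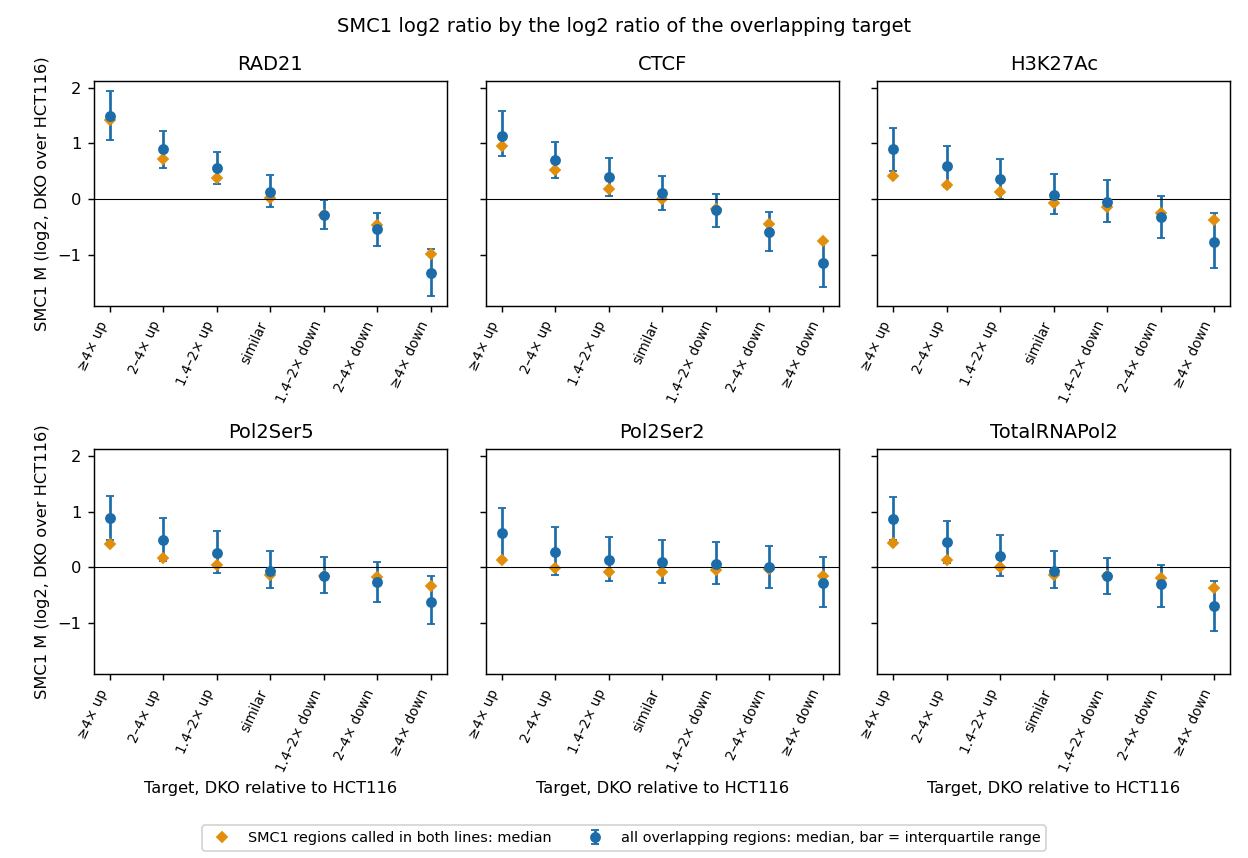
Median SMC1 M (y axis, log2, DKO over HCT116) in classes of the log2 ratio of the overlapping region of each other target (x axis, from at least 4-fold higher to at least 4-fold lower in DKO), with bars for the interquartile range and diamonds for SMC1 regions called in both lines. Medians run from 1.49 to -1.34 across the RAD21 classes, from 1.14 to -1.15 across the CTCF classes and from 0.61 to -0.28 across the Pol2Ser2 classes.

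Marks of active chromatin followed SMC1 to different degrees. At H3K27Ac regions at least 4-fold higher in DKO (3653) the median SMC1 M was 0.89 and 42.2% were higher, and at those at least 4-fold lower (2123) it was -0.77 and 35.8% were lower. The corresponding medians were 0.88 and -0.62 for Pol2Ser5, the initiating form of the enzyme, while TotalRNAPol2 gave 0.86 and -0.71. For Pol2Ser2, the elongating form, they were 0.61 and -0.28. Over SMC1 regions called in both lines these pairs shrank to 0.42 and -0.39 (H3K27Ac), 0.42 and -0.34 (Pol2Ser5), 0.44 and -0.38 (TotalRNAPol2) and 0.12 and -0.15 (Pol2Ser2). In the polymerase tables for Pol2Ser2 and TotalRNAPol2 the authors' scaling of the lines varied with the density of a region, with slopes of 0.33 and 0.32 in the mean log2 density, against 0.02 for SMC1.

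CTCF and H3K27Ac were then read together. Where both were higher in DKO (2718 SMC1 regions), 52.0% of SMC1 regions were higher, with a median M of 1.03. Where CTCF was higher and no H3K27Ac region was present (8335), 43.9% were higher, with a median of 0.91. Where CTCF was higher and H3K27Ac lower (237), 18.1% were higher, with a median of 0.47. Across these H3K27Ac classes SMC1 was thus higher most often where acetylation was higher too. At the 140 regions where CTCF was higher but RAD21 lower, the SMC1 median was -0.20 and 0 were higher.

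Acetylation also went with SMC1 where CTCF did not differ or was absent. At similar CTCF regions with higher H3K27Ac (1656), 9.30% of SMC1 regions were higher (median 0.30), against 1.83% with similar H3K27Ac (18261, median -0.03). With similar CTCF and no H3K27Ac region (28912) the share was 4.14% (median 0.20). The 9.30% is near the 9.36% over all SMC1 regions. Without a CTCF region, 27.1% of SMC1 regions were higher where H3K27Ac was higher (4637, median 0.67), and 25.5% were lower where H3K27Ac was lower (3563, median -0.59). Where both CTCF and H3K27Ac were lower (849), 37.0% of SMC1 regions were lower, with a median of -0.82. The 69 regions with lower CTCF and higher H3K27Ac had a median of 0.02. Among regions called in both lines the medians were 0.81 where both were higher (414) and -0.64 where both were lower (317). Without a CTCF region they shrank to 0.26 where H3K27Ac was higher (462) and -0.38 where H3K27Ac was lower (581). In those 462 regions 5.63% were higher, and in those 581 regions 6.88% were lower.

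**Figure D4:**
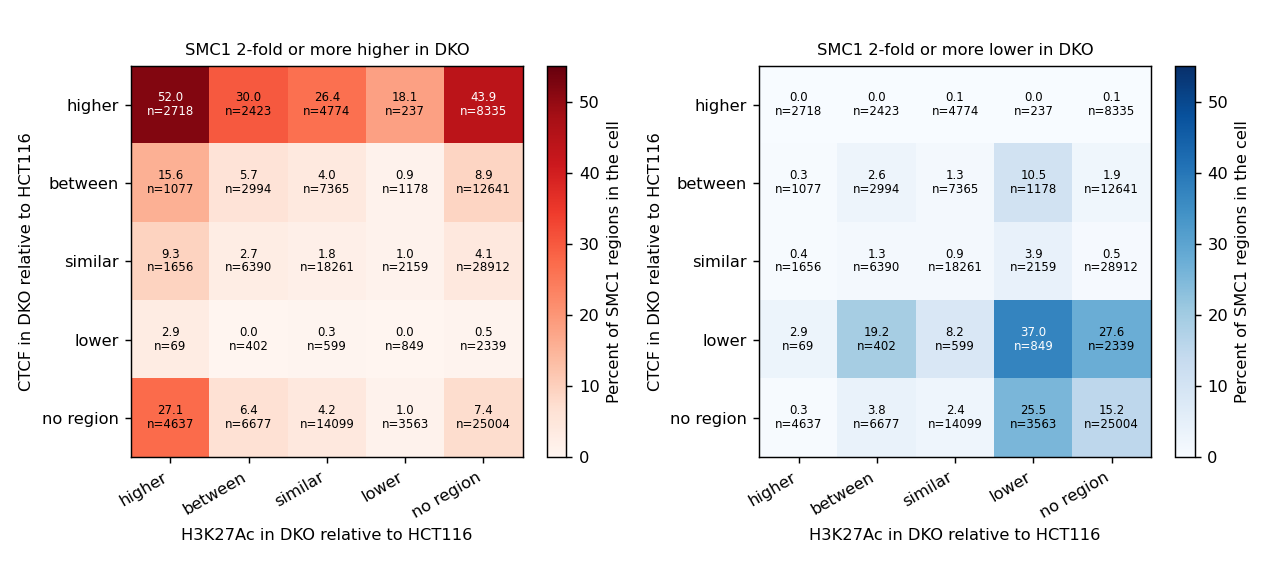
Percent of SMC1 regions at least 2-fold higher in DKO (left) and at least 2-fold lower in DKO (right), by the class of the overlapping CTCF region (rows) and H3K27Ac region (columns), with the number of SMC1 regions in each cell. The highest share on the left, 52.0%, is where both are higher, and the highest on the right, 37.0%, is where both are lower.

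Seen from SMC1, most higher regions that had a partner went with a higher partner. Of the 14923 higher SMC1 regions, 11592 overlapped RAD21, and 6904 of these (59.6%) had RAD21 at least 2-fold higher, 1947 (16.8%) had it similar and 8 had it lower. CTCF was present at 10764, and was higher at 7102 (66.0%), similar at 1880 (17.5%) and lower at 16. Over the whole tables, 13.7% of RAD21 regions and 20.1% of CTCF regions were higher in DKO. At similar SMC1 regions the overlapping RAD21 region was higher in 3.69% and the CTCF region in 7.44%.

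For the 7439 lower SMC1 regions the overlap was sparser. RAD21 was present at 2801 (37.7%), and it was lower at 1738 of these (62.0%), similar at 354 and higher at 8. CTCF was present at 2128 (28.6%), and was lower at 1087 (51.1%), similar at 486 and higher at 10. Over the whole tables, 8.70% of RAD21 regions and 6.33% of CTCF regions were lower in DKO. H3K27Ac was present at 34.9% and was lower at 55.1% of these, against 10.4% over its whole table.

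Active marks at the higher SMC1 regions were likewise higher more often than over their own tables. H3K27Ac was present at 47.5% of the higher SMC1 regions and was higher at 42.3% of these, against 11.0% over its whole table. Pol2Ser5 was present at 33.8% and higher at 59.9% of these (14.9% over its table), TotalRNAPol2 at 39.9% and higher at 67.2% (20.7%), and Pol2Ser2 at 30.8% and higher at 44.3% (18.6%). At the lower SMC1 regions Pol2Ser5 was lower at 49.8% of its overlaps (21.0% over its table), TotalRNAPol2 at 47.6% (10.2%) and Pol2Ser2 at 21.4% (10.9%). Pol2Ser2 was thus the mark whose calls at lower SMC1 regions stood nearest to the share of its own table.

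RAD21 and CTCF were jointly higher at 4918 higher SMC1 regions (33.0%), whose median M was 1.44. At 678 higher SMC1 regions (4.54%) both were present and similar, with a median M of 1.14, close to the threshold of 1. Both were present and lower at 673 lower SMC1 regions (9.05%), with a median M of -1.35, and both were present and similar at 68 (0.914%). Regions where SMC1 went past 2-fold while both partners were present and similar were thus few. Other classes of higher SMC1 regions also lay near the threshold. Their median M was 1.19 with neither partner and 1.22 where RAD21 was higher and CTCF similar. Where CTCF was similar and RAD21 higher (2064 SMC1 regions), SMC1 was higher in 20.8% (median 0.63). Where CTCF was higher and RAD21 similar (3474), it was higher in 13.5% (median 0.53).

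Not every CTCF or RAD21 region carried SMC1. Of all CTCF regions 49.0% overlapped an SMC1 region, and of all RAD21 regions 55.4%. For CTCF the share was 59.7% at regions at least 4-fold higher in DKO, 39.5% at 2- to 4-fold higher, 55.7% at similar and 29.5% at those at least 4-fold lower. For RAD21 it was 66.2% at regions at least 4-fold higher, 59.3% at similar and 31.5% at those at least 4-fold lower. For both, the regions most strongly lower in DKO carried SMC1 least often. Carrying SMC1 here means overlapping a called SMC1 region, and more of these were called in DKO only (68812) than in HCT116 only (36128). The part that this calling had in the shares was not tested.

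Single regions are named from the 79731 regions whose larger density was at least 52.1, at most 1 per 10 kb within each list. Coordinates are those of the deposited table, build hg19. Their genes and sequences were not analysed here. Reads of RAD21 and CTCF are from 1 kb windows like those of SMC1, and reads of H3K27Ac and polymerase from 2 kb windows. Each count belongs to the target's own overlapping region, so counts of different targets are not from the same window. The 10 highest had M of 3.39 to 4.97, all were called in DKO only, and all overlapped CTCF (M 2.27 to 6.24) and RAD21 (M 1.46 to 4.43). At chr22:48972241-48972405, the highest, SMC1 had 75 reads in DKO against 1 read in HCT116 (M 4.97, interval 3.43 to 11.27). RAD21 there had 385 reads in DKO against 65 in HCT116, and CTCF 472 in DKO against 21 in HCT116, so both partners had reads in HCT116, where the median per region is 30 for RAD21 and 36 for CTCF.

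At chr10:134937772-134938763 SMC1 had 120 reads in DKO against 6 in HCT116 (M 3.81, 2.86 to 5.50), with 215 and 9 for RAD21 and 252 and 3 for CTCF in the same lines. H3K27Ac there was similar, with 36 reads in DKO against 41 in HCT116. At chr3:96531492-96533271 SMC1 had 223 reads in DKO against 13 in HCT116 (M 3.68, 2.98 to 4.72). Every mark that overlapped this site was higher in DKO, with 326 reads in DKO against 11 in HCT116 for RAD21, 495 and 5 for CTCF and 148 and 4 for H3K27Ac. At chr17:71641315-71642026 SMC1 had 134 reads in DKO against 7 in HCT116 (M 3.77, 2.87 to 5.30), and at chr13:112715683-112717941 it had 187 in DKO against 12 in HCT116 (M 3.54, 2.81 to 4.63). At chr5:3599287-3601149 it had 168 in DKO against 12 in HCT116 (M 3.39, 2.65 to 4.48). Their point estimates ran from 10.5-fold to 14.0-fold higher in DKO, and their intervals reached lower folds. Of the 10 highest, 3 overlapped H3K27Ac, which was higher at 1 of them, and 4 overlapped TotalRNAPol2, which was higher at all 4.

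The 10 lowest had M of -7.53 to -2.51 and were all called in HCT116 only. At chr20:31377552-31378460 SMC1 had 0 reads in DKO against 151 in HCT116. With the DKO reads set to a floor of 3 this was 61.0-fold lower, and the interval of M reached up to -5.62. RAD21 there had 0 reads in DKO against 174 in HCT116, and CTCF 0 in DKO against 431 in HCT116. Pol2Ser2 and TotalRNAPol2 also had 0 reads in DKO, against 52 and 74 in HCT116. Absent DNA cannot be told apart from absent binding at this region. At chr7:120943574-120944034 SMC1 had 6 reads in DKO against 50 in HCT116 (M -3.15, -4.86 to -2.13), with 4 reads of H3K27Ac in DKO and 484 in HCT116. At chr17:56100013-56100793 it had 14 in DKO against 98 in HCT116 (M -3.03, -4.04 to -2.30), with 21 reads of H3K27Ac in DKO and 201 in HCT116. Acetylation was lower in DKO together with SMC1 at both of these regions.

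RAD21 overlapped all 10 lowest regions and was at least 2-fold lower at all of them (M -8.07 to -1.27). CTCF overlapped 5 and was lower at all 5, and H3K27Ac overlapped 8 and was lower at 7. At chr4:11615854-11616420, a site without CTCF, SMC1 had 8 reads in DKO against 52 in HCT116 (M -2.85, -4.28 to -1.91), RAD21 9 in DKO against 41 in HCT116, and H3K27Ac 7 in DKO against 575 in HCT116. At chrX:28195229-28195955, a CTCF site, SMC1 had 13 reads in DKO against 82 in HCT116 (M -2.87, -3.93 to -2.11), with 37 reads of CTCF in DKO and 286 in HCT116. The highest regions were thus all CTCF sites, and the lowest included 5 sites without CTCF. Over all SMC1 regions of each class, CTCF overlapped 72.1% of the higher and 28.6% of the lower ones. CTCF was thus no rarer among the lowest regions than among lower regions at large. The named regions were drawn from denser regions only, and whether their CTCF counts differ from these shares was not tested.

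Within the classes the highest M was smaller away from CTCF. Those classes also hold fewer regions, 21278 with RAD21 without CTCF and 32702 with neither, against 94488 with both. The extremes were not adjusted for the number of regions searched. The 3 lowest CTCF and RAD21 sites had M of -7.53 (with 0 reads in DKO), -3.15 and -2.87. Those at RAD21 sites without CTCF were of like size apart from the first, with -3.03, -3.02 and -2.85. The highest RAD21 site without CTCF was chr19:54492777-54493656, with 122 reads in DKO against 12 in HCT116 (M 2.93, 2.18 to 4.03), and H3K27Ac there had 433 reads in DKO against 167 in HCT116. The next, chr14:35869794-35870854, had 103 in DKO against 11 in HCT116 (M 2.81, 2.02 to 3.97), with 1246 reads of H3K27Ac in DKO and 618 in HCT116. All 3 highest regions of this class overlapped H3K27Ac at M of 1.05 to 1.52, and all 3 lowest overlapped it at M of -5.91 to -2.94. Of sites with neither CTCF nor RAD21, the highest lay on chromosome 8 and held 58 SMC1 reads in DKO against 6 in HCT116 (M 2.78, 1.77 to 4.49), with no region of any other target over it. The third highest, chr4:169799071-169799304, held 78 SMC1 reads in DKO against 13 in HCT116 (M 2.19, 1.42 to 3.25). The lowest, chr1:8130039-8130212, had 11 in DKO against 56 in HCT116 (M -2.55, -3.73 to -1.70), beside 60 reads of H3K27Ac in DKO and 938 in HCT116. This region adjoined chr1:8130459-8130741, a RAD21 site without CTCF among the lowest regions, with 9 SMC1 reads in DKO against 49 in HCT116. Their 1 kb windows overlap and can hold the same SMC1 reads, and both were matched to the same H3K27Ac reads. The region at chr1:8130039-8130212 can therefore not be taken as a site apart from RAD21, and whether it is one was not tested.

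The 5 densest regions were called in both lines and differed little. At chr17:48277124-48279694 SMC1 had 784 reads in DKO against 731 in HCT116 (M -0.28, -0.43 to -0.13), and at chr20:48224714-48230136 it had 794 in DKO against 479 in HCT116 (M 0.35, 0.19 to 0.52). Among the 5, M ran from -0.31 to 0.35, all within the similar class. In 5 regions, chosen after their values were seen, a line had 0 reads. They were the chromosome 20 region above, chrX:96571083-96571247 with 0 in DKO against 18 in HCT116, and 3 regions with 0 reads in HCT116. Of these, chr1:4714946-4715115 had 34 reads in DKO, chr5:27021232-27021402 had 27 and chr5:1025965-1026130 had 18. With the HCT116 reads set to the same floor they were 9.47-fold, 7.53-fold and 5.04-fold higher. Their intervals of M reached down to 2.87, 2.52 and 1.88.

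SMC1 differences ran in stretches along chromosomes. Among SMC1 regions whose summits lay 1 to 5 kb beyond that of a higher region, 22.3% were higher and 0.412% lower. Beyond a similar region the shares were 8.27% higher and 1.35% lower, and beyond a lower region 2.61% higher and 19.2% lower. At 100 to 500 kb they were 11.9% and 2.15% beyond higher regions, 9.34% and 2.66% beyond similar ones and 7.77% and 6.79% beyond lower ones. Lower regions thus had lower neighbours more often than other classes did, most of all at 1 to 5 kb and to a smaller degree at 100 kb and beyond. Regions this far apart share no counting window.

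By chromosome, with Y left out for its 8 regions, median M ran from 0.01 on X (95% interval -0.03 to 0.05) over 0.03 on 6 and 0.04 on 4 to 0.31 on 22 (0.28 to 0.33), 0.33 on 20 (0.30 to 0.35) and 0.42 on 21 (0.39 to 0.46). On chromosome 21, 17.9% of regions were higher and 3.09% lower, and on chromosome 20, 15.3% and 2.29%. On chromosome 13, 11.5% were lower and 9.70% higher. Over regions called in both lines the spread was smaller, with medians of 0.11 on 21, 0.12 on 20 and -0.08 on 4. All 7 targets stood above 0 on chromosomes 20 and 21 over regions called in both lines. The same held on 9, 11, 15 and 22, where the smallest median was 0.02 or less. On 21 the medians of the other 6 targets ran from 0.10 (TotalRNAPol2) to 0.17 (RAD21), and on 20 from 0.06 (Pol2Ser2) to 0.23 (CTCF). The DNA content of these chromosomes was not tested.

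**Figure D5:**
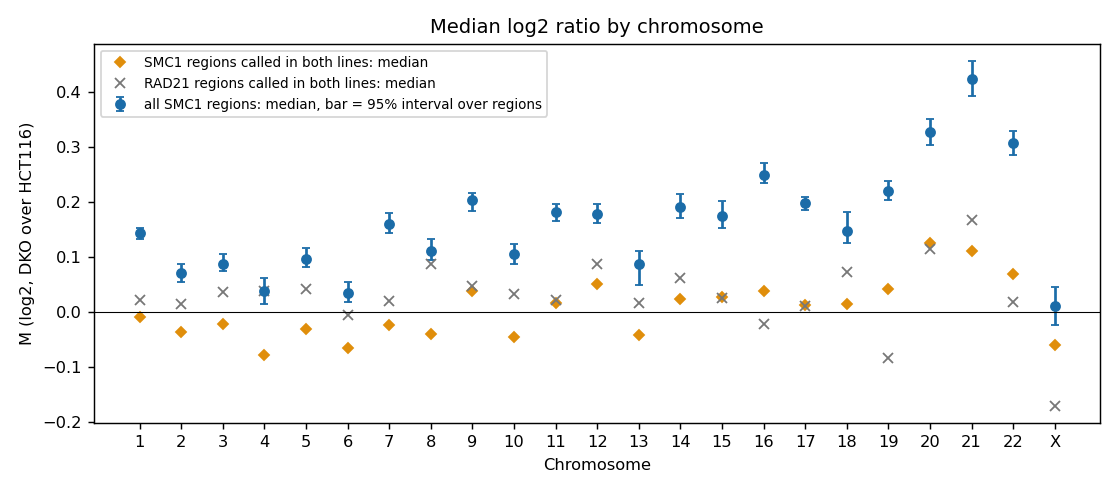
Median M (y axis, log2, DKO over HCT116) by chromosome (x axis, Y left out for its 8 regions) for all SMC1 regions (circles, bars for the 95% interval over regions), SMC1 regions called in both lines (diamonds) and RAD21 regions called in both lines (crosses). Chromosomes 20 and 21 stand highest at 0.33 and 0.42 over all SMC1 regions, and at 0.12 and 0.11 over those called in both lines.

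Regions near chromosome ends had higher M than those inside. Within 2 Mb of the low-coordinate end the median was 0.36 and 12.8% were higher, and at 20 Mb or more from it the median was 0.14 and 9.16% were higher. Measured from the last region of any table at the high-coordinate end, the median was 0.35 within 2 Mb and 0.12 at 20 Mb or more. Over regions called in both lines the medians within 2 Mb were 0.07 and 0.06, against -0.01 and -0.02 farther in.

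In 1181 bins of 2 Mb with at least 30 SMC1 regions, 44 had a median M above 0.5 and 16 one below -0.5. The lowest lay on chromosome 13: from 50 to 52 Mb, 57 of 75 regions (76.0%) were lower and 0 higher, with a median of -1.29, and the bins at 48 to 50 and 52 to 54 Mb had 59.0% and 54.9% lower. Over regions called in both lines, the bin at 50 to 52 Mb had medians of -1.08 for SMC1, -0.98 for RAD21, -0.81 for CTCF and -0.68 for H3K27Ac, and of -0.78 for Pol2Ser5, -0.92 for Pol2Ser2 and -0.54 for TotalRNAPol2. All 7 targets were lower there together, and DNA content was not tested. From 240 to 242 Mb on chromosome 2, 94 of 259 SMC1 regions (36.3%) were lower. All 7 targets were lower there too over regions called in both lines. The medians were -0.97 for SMC1, -0.80 for RAD21, -0.57 for CTCF and -0.92 for H3K27Ac. For Pol2Ser5, Pol2Ser2 and TotalRNAPol2 they were -0.55, -0.47 and -0.54. The highest share of higher regions was on chromosome 16 from 32 to 34 Mb, where 21 of 37 (56.8%) were higher and 0 lower. On chromosome 20 from 46 to 48 Mb, 95 of 246 regions (38.6%) were higher and 2 lower, with medians over regions called in both lines of 0.80 for SMC1 and of 0.40 (Pol2Ser5) to 0.65 (RAD21) for the other 6 targets.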

How the data were processed

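SMC1 regions were compared between DKO and HCT116 (1 library each), with samples grouped by title. Reads were aligned with BWA to hg19 and peaks called with MACS2, per the submitters' processing notes, and MACS2 is not named for TotalRNAPol2. Neither tool versions nor thresholds were given in the sources used here. The signal of each region is a read density that the authors normalized and deposited. The authors deposited a log2 ratio (M) and a mean log2 density (A) per region. The p-value per region that the authors deposited was used only in 1 alternative filter.

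M was computed from the 2 densities. Reads were recovered from M and A as whole numbers (100% within 0.05, 1 read added by the authors' method, a line in A with slope 0.02 for SMC1). The recovery and the intervals were tested on simulated data. Regions of other tables were matched by at least 1 shared bp, taking the longest overlap, and each table was read on its own scale. Medians have order-statistic intervals and shares Wilson intervals, at 95%. With 1 library per line no test was made. Members, classes and rules were chosen with earlier results of these data known. Named regions are the 10 highest and 10 lowest M, the 3 highest and lowest at sites with CTCF and RAD21, with RAD21 without CTCF and with neither, and the 5 densest. Alternatives changed the centring, the regions kept, the threshold or the overlap. Input libraries, gene lists, motifs and CpG content were not analysed here. Python 3.11.15, numpy 2.4.6, pandas 2.3.3 and scipy 1.17.1 were used.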

Additional observations from a re-analysis of the deposited data

How the results depend on the processing

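Of 84 values that 11 results took under the alternatives, 38 stayed within 1.5 times the reported count or inside the 95% interval of the reported median. The excess of higher over lower regions (14923 and 7439) turned with the median of all regions set to 0 (9722 and 10944) and with chromosome medians set to 0 (9754 and 10621). Regions higher in DKO (14923) numbered 9722 with the median of all regions set to 0, 9754 with chromosome medians set to 0, 1224 among regions called in both lines, 9081 among the denser regions (larger density at or above the median), 5918 with a deposited p under 1e-05, 39550 at 1.5-fold and 936 at 4-fold. Lower regions (7439) numbered 600 among regions called in both lines, 1641 among the denser ones, 1129 under the p filter, 20265 at 1.5-fold and 439 at 4-fold. Higher regions at CTCF and RAD21 (9649) numbered 1177 among those called in both lines, 4975 under the p filter, 23431 at 1.5-fold and 806 at 4-fold. Lower regions with neither (4364) numbered 2, 117 (denser), 148, 8967 and 305 in the same alternatives. Higher regions with similar CTCF (1880) numbered 219, 1093 (denser), 503, 8677 and 19, and 1212 with 1 region per 1 kb window. Higher regions with higher RAD21 (6904) numbered 796, 3954, 17865 and 575. The median M at higher CTCF (0.84) was 0.77 after either recentring, 0.79 under constant scaling, 0.59 over regions called in both lines, 0.94 over denser ones, 1.54 under the p filter, 0.67 at 1.5-fold, 1.14 at 4-fold and 0.78 with matches within 1 kb. Higher regions called in DKO only (13687) numbered 8956 after recentring, and keeping regions called in both lines leaves none to count. Over regions called in both lines, lower regions numbered 157 under 500 bp (against 6622) and 11 in the lowest density quartile (against 5708). The chromosome 21 median (0.42) was 0.27 after recentring, 0.11 over regions called in both lines and 0.37 with 1 region per window. The filters and thresholds change which regions are counted, and the cause was not tested otherwise. No paired analysis was possible because each line had 1 library per target. Alternatives for motif and CpG classes were not run, since no hg19 sequence was used here. Depth limits single regions: the 95% interval of M had a median width of 1.33.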

Other observations

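SMC1 regions that overlapped all 6 other tables (22483) had a median M of -0.02 and were higher in DKO in 8.08% and lower in 1.66%. Regions that overlapped 3 other tables (21937) had a median of 0.26, with 9.49% higher and 2.80% lower. Among regions called in both lines the medians were -0.13 with all 6 and 0.08 with 3.

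Polymerase regions carried SMC1 to unequal degrees. Of Pol2Ser5 regions at least 4-fold higher in DKO, 48.5% overlapped an SMC1 region, against 32.9% of similar and 13.7% of those at least 4-fold lower. For Pol2Ser2 these shares were 24.4%, 18.5% and 9.63%. For TotalRNAPol2 they were 50.0%, 28.8% and 28.9%, so its strongly lower regions carried SMC1 about as often as its similar ones. The part that the calling of SMC1 regions had in these shares was not tested.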
